A study of Mus musculus with 9 samples.

Results

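Nuclear-encoded respiratory chain genes were taken as the protein-coding genes whose symbol starts with Nduf, Sdha to Sdhd, Uqcr, Cox4 to Cox8 or Atp5, with the Ndufaf and Sdhaf assembly factors left out. The rule found 85 of the 39179 gene rows of the count table. They comprise 36 genes of complex I, 4 of complex II, 8 of complex III, 20 of complex IV and 17 of complex V, the ATP synthase; 11 pseudogene or other non-coding rows with matching symbols stayed out. Ndufa4 was placed with complex IV, where its protein sits, and Atp5s, a coupling factor gene, with complex V. A filter on low counts left 82 for testing among 18576 genes. Cox7b2, Cox8b and Cox8c did not pass it.

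The respiratory chain lies in the inner mitochondrial membrane. Complexes I and II pass electrons from NADH and succinate to ubiquinone, complex III passes them on to cytochrome c, and complex IV hands them to oxygen; complexes I, III and IV pump protons, and the ATP synthase uses the proton gradient to make ATP. Most subunits come from nuclear genes and are joined to a small set encoded by mitochondrial DNA, so both genomes supply parts of complexes I, III, IV and V, whereas complex II is wholly nuclear. Quiescent blood stem cells are known to rely on respiration less than their dividing progeny do.

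The RNA came from LSK cells of mouse bone marrow, sorted as negative for lineage markers and positive for Sca1 and cKit, a fraction that holds stem cells and early progenitors. All animals were C57BL/6, aged 6 months, and had received poly(I:C) in 5 intraperitoneal injections to induce Mx1-Cre, a recombinase under an interferon-driven promoter. The wild-type group (3 libraries) had the genotype Dnmt3a+/+ with Mx1-Cre, and the mutant group (4 libraries) was Dnmt3a+/m, with Mx1-Cre and a conditional mutant allele at the endogenous locus; the series title places the mutation at codon R882 of human DNMT3A. The Cre-negative group (2 libraries) carried the conditional allele without Cre and is given as Dnmt3a+/-, so its difference from wild type joins the allele with the absence of Cre. Mx1-Cre acts in every cell that responds to interferon, not in blood cells alone. Where a library is named, it is called by its group and the number in its title. The design text speaks of animals, but no label states that each library came from a different animal; p-values measure the spread between libraries.

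Gene counts ranged from 47792306 to 58405879 per library. Dnmt3a, the targeted gene, stood at 148 to 173 CPM (counts scaled to a common library size) in the 7 libraries with Cre and at 118 and 93.5 CPM in the Cre-negative ones; gene counts do not separate its mutant from its normal transcript. Kit, a defining LSK gene, stood at 369 to 539 CPM. Of the markers of other cells, the T cell gene Cd3e, the endothelial gene Cdh5 and the stromal gene Col3a1 were at 0.317 CPM or less in all 9 libraries, but others of the same lists were not, among them Nkg7 (71.1 to 110 CPM), Pdgfrb (51.4 to 94.4) and Pecam1 (140 to 181). The summed lists stood at 78.0 to 116 CPM (T and NK cells, 8 genes) and 205 to 276 CPM (stromal and endothelial cells, 8 genes). Summed erythroid markers (14 genes, none at 0 in all libraries) reached 3964 CPM in cre_negative_819, against 872 to 1124 CPM in the other 8, and summed LSK markers (10 genes) were lowest there, at 2072 CPM against 2486 to 3060. Libraries of 1 group differed well beyond sampling noise, the lowest chi-square, divided by its degrees of freedom, being 14.6. Y-linked transcripts were present in 5 libraries, with at least 1 in each group, and absent or nearly so in the other 4. In bulk RNA, fewer cells of a type and less RNA per cell cannot be told apart.

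Together the 85 genes took 0.768% to 1.02% of the gene counts of a library. Wild-type libraries gave them 0.773% to 1.02%, Cre-negative libraries 0.768% and 0.980% (cre_negative_780 and cre_negative_819), and mutant libraries 0.943%, 0.884%, 0.846% and 0.853% (mutant_824, mutant_827, mutant_829 and mutant_830). The 3 groups overlapped, and the mutant libraries lay inside the range of wild type. The ATP synthase genes were the largest fraction, at 0.320% to 0.454%, followed by complex I at 0.183% to 0.236% and complex IV at 0.122% to 0.162%.

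Levels between genes were compared as CPM per kilobase of transcript, using the median length of a gene's protein-coding transcripts. The highest was Atp5b, the catalytic beta subunit of the ATP synthase (ENSMUSG00000025393, chromosome 10, 128083273 to 128090391 of GRCm38), at 642 ± 115 CPM per kilobase (SD, n = 9). Ndufa4, a cytochrome c oxidase subunit, followed at 457 ± 89.2, Atp5a1, the catalytic alpha subunit, at 431 ± 56.8, and Uqcrh, the hinge protein of complex III, at 389 ± 52.2 CPM per kilobase. The ranges of the last 3 overlapped over the 9 libraries, so their order is not firm, and with all exons of a gene as its length Atp5a1 came first and Atp5b second.

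Complexes differed in their typical level per kilobase: the median over genes was 60.0 CPM per kilobase in complex I, 90.3 in complex II, 103 in complex III, 115 in complex IV and 177 in the ATP synthase. These medians are over the 82 tested genes. With its 3 untested isoform genes the median of complex IV was 88.3, below those of complexes II and III. The order also depended on the length used. With all exons of a gene as its length, complex III and not the ATP synthase had the highest median, and genes within a complex changed rank too. Within complex I, Ndufa6 (156 CPM per kilobase) and Ndufb9 (128), both accessory subunits, were highest, and the 7 core subunits, which carry the electron path, had a median of 61.4 against 55.1 for the 29 accessory ones. In complex II, Sdhd, a membrane anchor, stood at 122 CPM per kilobase, Sdha, the flavoprotein that oxidises succinate, at 105, and Sdhc, the other anchor, at 55.0. In complex III, Uqcrb, a small accessory subunit, followed Uqcrh at 144 CPM per kilobase, whereas Uqcrq, another small subunit, was at 21.8. Complex IV was led by Ndufa4 and Cox6b1, which joins the monomers of the complex, at 277 CPM per kilobase. These are medians of genes within 1 set of libraries and were not tested against each other.

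**Figure D1:**
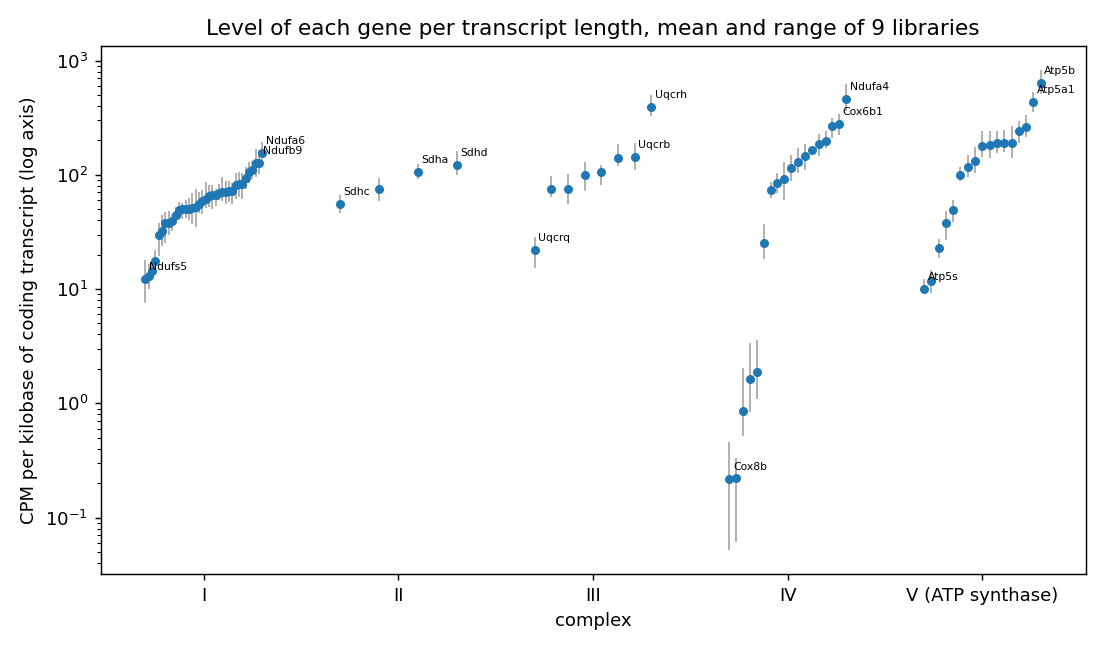
Level of each gene in CPM per kilobase of coding transcript (log axis) by complex; points are means of 9 libraries and bars run from the lowest to the highest library, with the lowest and the 2 highest genes named. Genes under 0.05 CPM per kilobase are not drawn; Atp5b (642) is highest, and complex IV alone has genes under 5 CPM per kilobase.

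Some subunits share sequence with other genes, and levels among these ran from low to high. In 27 of the 85 genes, at least 10% of the 50-base stretches of the transcript also occur in transcripts of other genes, and in 39 none do. Atp5l, the g subunit of the ATP synthase, shares 84.8% of its stretches with 14 genes, of which 12 are pseudogenes, and was counted at only 11.8 CPM per kilobase. Ndufs5 (31.1% shared) stood at 12.1 and Ndufb4 (37.0% shared) at 14.3 CPM per kilobase, both accessory subunits of complex I. Atp5o (50.3% shared) and Atp5h (47.9%), both of the ATP synthase, stood at 190 and 189 CPM per kilobase, and Uqcrb (43.4%) at 144. Uqcrq shares none and stood at 21.8. Reads that did not map uniquely were not assigned to genes, so levels of the genes with shared sequence are uncertain. The exons of 11 genes overlap another gene over at least 10% of their length, among them Atp5o (47.9%), Ndufb6 (39.0%) and Ndufa13 (30.0%), and whether strand was used in counting is not given in the sources used here.

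Several subunits of complex IV and of the ATP synthase exist as isoforms from separate genes, and in LSK cells most of the level per kilobase of each set came from 1 gene. Cox4i1, the common form of subunit IV, made up 99.3% to 99.8% of the pair per kilobase, and Cox4i2, known from lung and hypoxia, the remaining 0.190% to 0.690%. Cox6a2 and Cox7a1, the heart and muscle forms, averaged 1.92% and 1.35% of their pairs. Cox8b, also a muscle form, had between 1 and 9 reads per library. Cox8c had 3 reads, all in cre_negative_780, and Cox7b2, a testis form, 6 reads over 4 libraries. Ndufa4l2, a hypoxia-induced relative of Ndufa4, had 3 to 17 reads per library, or 0.0482% of that pair. Depth limits what can be said of these genes: at a few reads per library, a change of several fold would not be resolved.

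Cox6b2, the testis form of subunit VIb (ENSMUSG00000051811, chromosome 7, 4751792 to 4753094), was the exception among the minor cytochrome c oxidase isoforms. It was counted in all 9 libraries at 8.01 to 16.3 CPM and formed 5.77% to 10.4% of the Cox6b pair. None of its 50-base stretches occurs in another gene's transcripts. Among the genes for the c subunit of the ATP synthase, which all yield the same mature protein, Atp5g3 supplied 74.5% of the level per kilobase, Atp5g2 15.9% and Atp5g1 9.57%. The order of Atp5g2 and Atp5g1 rests on the length used. Before division by length, Atp5g1 averaged 61.6 CPM and Atp5g2 22.1 CPM. With all exons as the length, they stood at 12.55 and 13.22 CPM per kilobase. The Atp5g2 share was 9.66% in cre_negative_819 and 19.97% in cre_negative_780, with the other 7 libraries between them.

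**Figure D2:**
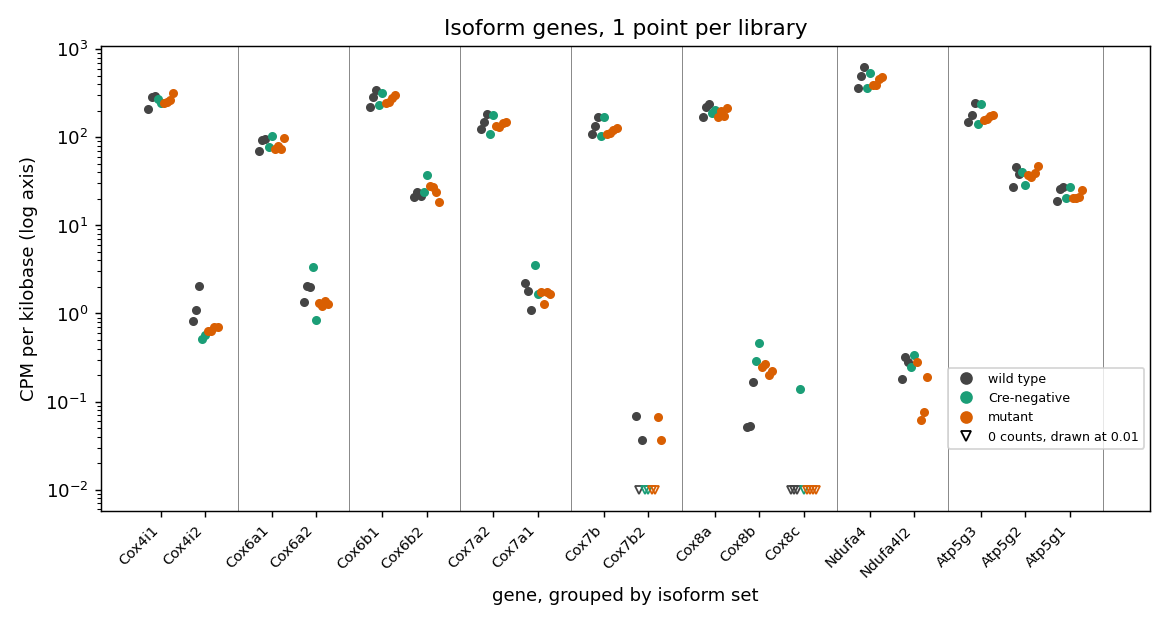
Isoform genes in CPM per kilobase (log axis), 1 point per library, coloured by genotype group, with open triangles for libraries with 0 counts drawn at 0.01. The common form lies far above the others in each cytochrome c oxidase set, Cox6b2 comes closest to its partner, and the highest Cox4i2 values are those of wild type.

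The clearest structure in these genes was between libraries rather than between genotypes: most of the subunits rose and fell together. For each gene, the log2 CPM (prior count 2) of a library was set against the gene's mean over the 9 libraries. The median of these deviations over the 82 genes ran from -0.24 to 0.30 in the 3 wild-type libraries. It was -0.18 and 0.25 in cre_negative_780 and cre_negative_819, and 0.10, -0.02, -0.14 and -0.11 in mutant_824, mutant_827, mutant_829 and mutant_830. Each group thus had libraries on both sides of 0, and the range from the lowest to the highest library was 0.54 on the log2 scale. Between 6 and 79 of the 82 genes lay above their mean in wild-type libraries, 20 and 62 in cre_negative_780 and cre_negative_819, and 4 to 67 in mutant libraries; over all genes tested, 46.9% to 52.0% lay above their mean in any library.

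Of the 82 genes, 25 had their highest value in cre_negative_819 (21.26% of all genes tested did) and 15 in mutant_824 (10.45%). The lowest value lay in cre_negative_780 for 34 of them (19.29% of all genes tested). Atp5b stood at 1023 to 1585 CPM in wild type, at 980 and 1566 CPM in cre_negative_780 and cre_negative_819, and at 1294, 1162, 1106 and 1098 CPM in mutant_824, mutant_827, mutant_829 and mutant_830. Cox5a, a matrix-side subunit of complex IV, ran from 38.8 CPM in cre_negative_780 to 83.4 in its highest library, of wild type, 2.15-fold. Sdhd ran from 122 CPM in cre_negative_780 to 197 in cre_negative_819. In all 3 genes the wild-type libraries, and likewise the Cre-negative ones, lay farther apart than the genotype means did; the mutant libraries lay closer together.

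Among the 76 genes with a mean of at least 10 CPM, the highest library exceeded the lowest by a median of 1.57-fold, and by at least 1.5-fold in 58. Ndufb7, an accessory subunit of complex I, spread most, 2.16-fold. Cox7a2l, known as a factor for supercomplexes of complexes III and IV (chromosome 17, 83501918 to 83517330), spread least, at 1.19-fold, between 166 and 197 CPM. It differed from most of the other genes also in order, with its highest values in mutant_827, cre_negative_780 and mutant_824.

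**Figure D3:**
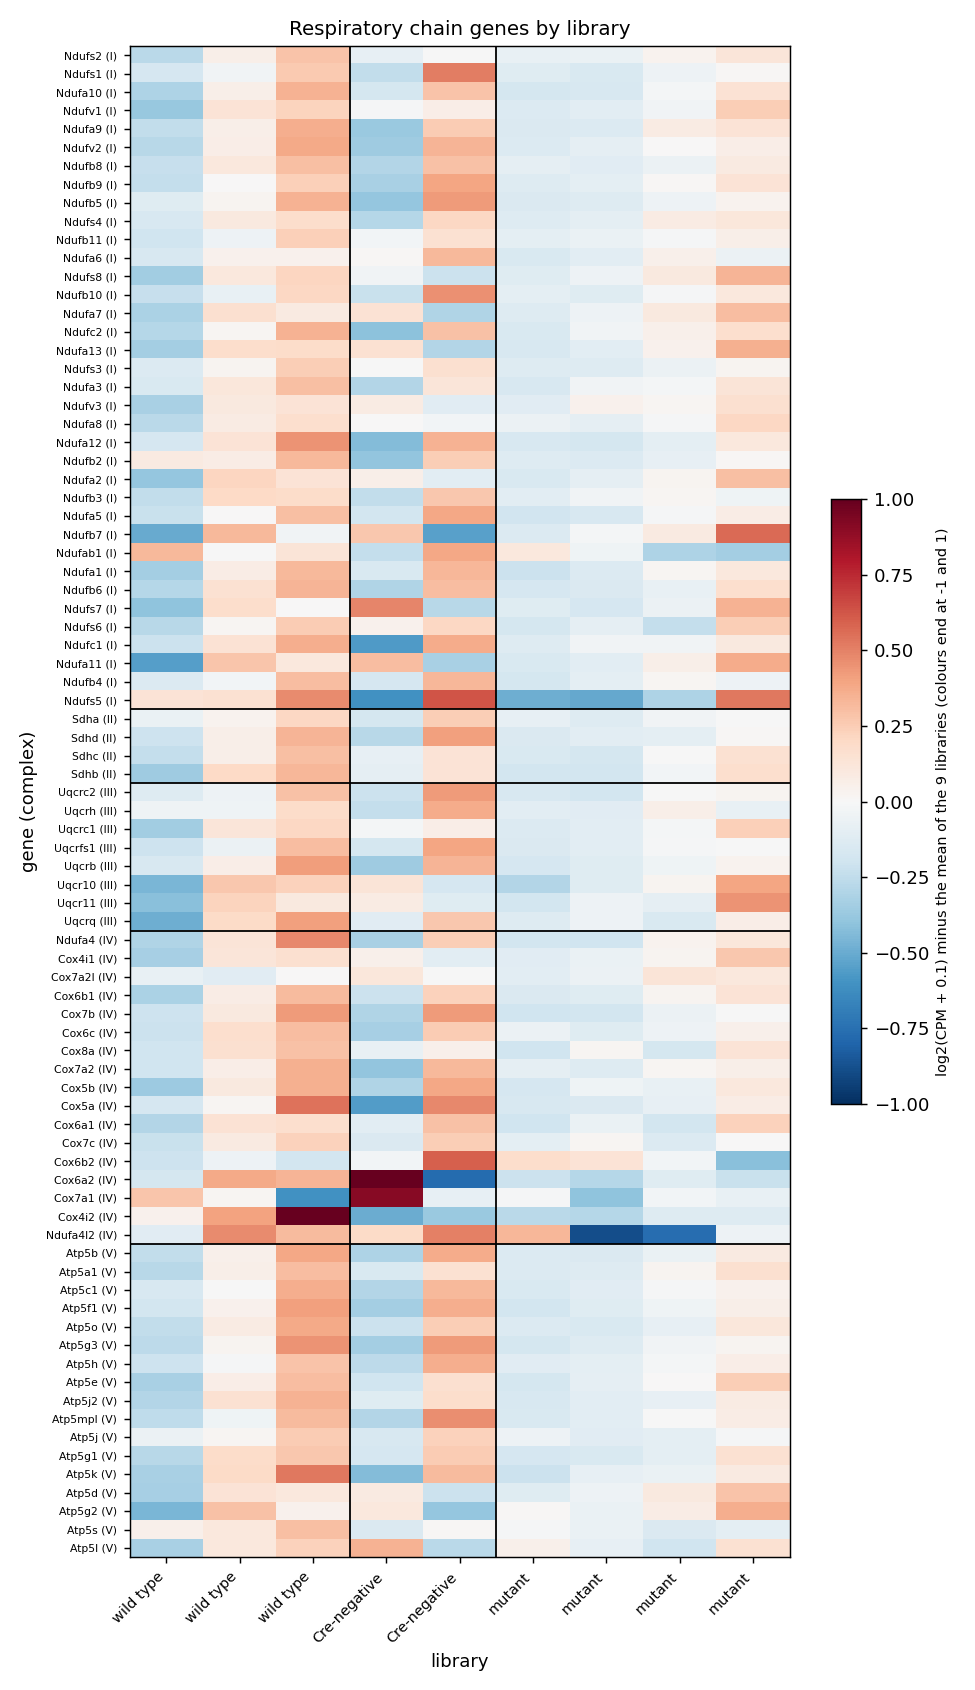
Each of the 82 tested genes (rows, by complex and mean level) in each of 9 libraries (columns, by group and, within a group, by the median deviation of the genes), coloured by log2(CPM + 0.1) minus the gene's mean over the libraries. Most genes of all 5 complexes run from low to high within each group, widest in wild type and Cre-negative. Cox4i2, Cox6a2, Cox7a1 and Cox6b2 depart from this in at least 1 group. In the Cre-negative pair, 10 of the 25 genes with the highest GC content, among them Ndufb7 and Ndufs7, run the other way.

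All 5 complexes followed the same course. In wild type the median deviation reached from -0.25 to 0.25 in complex I, from -0.22 to 0.31 in complex II, from -0.28 to 0.26 in complex III, from -0.21 to 0.32 in complex IV and from -0.26 to 0.31 in the ATP synthase. Mitochondrial ribosomal protein genes (77 genes, which build the ribosome that translates mitochondrial mRNA) varied with them. Across the 9 libraries their median and that of the respiratory chain genes had a Pearson's r of 0.99 (exact permutation p = 5.51e-06, adjusted p = 2.76e-05 over 5 relations computed). Spearman's rho was 0.98 (exact permutation p = 4.96e-05, adjusted p = 0.000248). Without the 2 libraries farthest from the median of the mitochondrial ribosomal protein genes, r was 0.97.

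The 11 tested mitochondrially encoded subunits did not share this course: r was 0.11 (exact permutation p = 0.787, adjusted p = 0.787) and rho -0.05 (exact p = 0.912, adjusted p = 0.912), and r without the 2 libraries farthest from the median of those subunits was -0.05. In the Cre-negative pair, cre_negative_780 and cre_negative_819 went the same way in both sets, at -0.18 and -0.34, and at 0.25 and 0.49. Of the mitochondrially encoded genes, mt-Co1 stood at 5978 to 9793 CPM but mt-Co2 at only 0.689 to 1.21 and mt-Atp6 at 0.639 to 1.48 CPM; part of this set was therefore close to absent from uniquely assigned reads.

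Other measures of the libraries were compared with the level of the respiratory chain genes. The share of reads outside annotated features ran from 13.6% to 23.1% over the 9 libraries and fell as the genes' median rose, with r of -0.73 (exact permutation p = 0.0231, adjusted p = 0.0577) and rho of -0.80 (exact p = 0.0138, adjusted p = 0.0346). Without the 2 libraries farthest from the median share r was -0.67. For reads not mapped uniquely, r was 0.30 (exact p = 0.448, adjusted p = 0.726) and rho 0.38 (exact p = 0.312, adjusted p = 0.521), with r of 0.66 without the 2 libraries farthest from the median share. For the erythroid markers, r was 0.24 (exact p = 0.581, adjusted p = 0.726) and rho -0.23 (exact p = 0.552, adjusted p = 0.690), and r was -0.52 without cre_negative_819 and mutant_829. In wild type and mutant, each library without Y-linked transcripts had a lower median than each with them, and in Cre-negative the reverse held. The part of these measures in the course of the genes was not tested, and the labels name no batch.

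**Figure D4:**
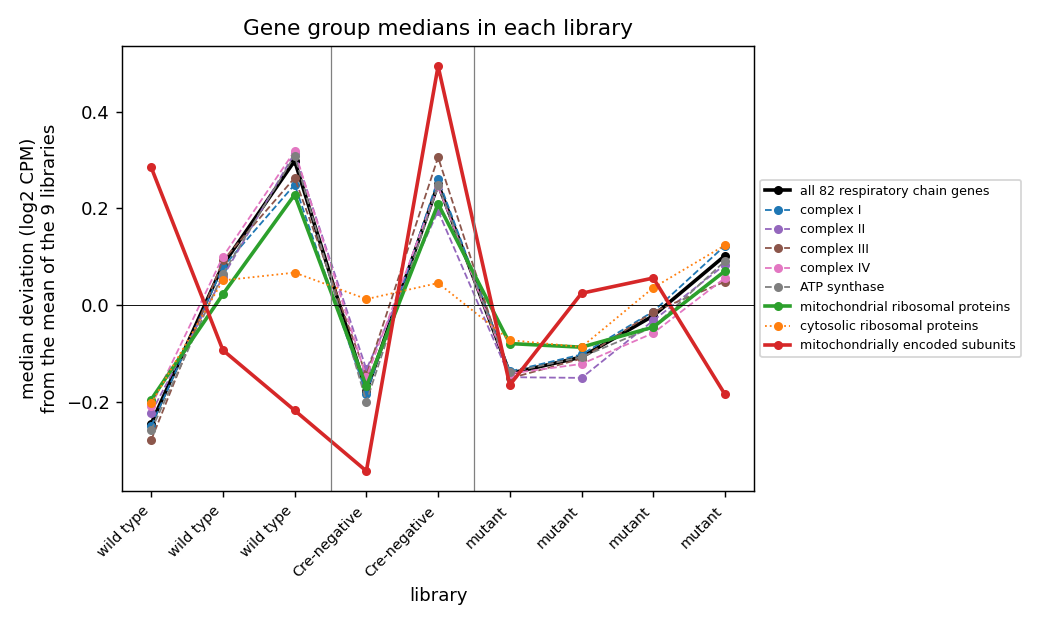
Median deviation of log2 CPM from the mean of 9 libraries for all 82 respiratory chain genes, each complex, and 3 other gene groups, by library (ordered within a group by the value of the 82 genes). The complexes and the mitochondrial ribosomal proteins trace 1 course, from -0.24 to 0.30 in wild type for all 82 genes, while the mitochondrially encoded subunits take another.

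In the Cre-negative pair, genes with GC-rich transcripts followed the common course less closely. This comparison was chosen after the values were seen. Transcript GC content ran from 39.9% to 61.6% over the 76 genes with a mean of at least 10 CPM. The genes were ranked by GC and split into 3 classes. In the class with the lowest GC (39.9% to 50.7%), 24 of 26 were higher in cre_negative_819 than in cre_negative_780, with a median log2 difference of 0.62. In the middle class it was 22 of 25, with a median of 0.43, and in the class with the highest GC (55.1% to 61.6%) 15 of 25, with 0.12. Ndufb7 (59.7% GC), Ndufs7, a core iron-sulfur subunit of complex I (60.7%), and Ndufa11, a membrane-arm subunit (58.2%), were lower in cre_negative_819 by log2 differences of -0.81, -0.77 and -0.63.

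Across the 76 genes, the difference of cre_negative_819 from cre_negative_780 and GC content had r = -0.50 and Spearman's rho = -0.49. Across all 9423 coding genes at that level, r was -0.36 and rho -0.46, so the relation was not particular to the respiratory chain genes. For mutant_824 minus mutant_830, r was 0.40 over the 76 genes and 0.16 over all, and rho 0.47 and 0.31. These correlations are across genes of the same pair of libraries, and genes are not independent replicates. Not every pair of libraries of 1 group showed such a relation.

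The promoters of the respiratory chain genes, whatever their course over the libraries, were searched for motifs known from nuclear respiratory genes. RefSeq tables of GRCm38.p6 held 74 windows, from 250 bases before to 50 after the transcription start, for 69 of the 85 genes. NRF1 is a transcription factor named for its place at respiratory gene promoters, and GABP, an ETS factor, is known there as NRF2. The NRF1 letters (GCGC, any base, then TGCGC, on either strand) occurred in 18 of 74 windows (24.3%), against 4.60% of all 32851 windows and 6.38% of the 21263 of coding genes. The following stretches before the start show windows with these letters, and that of a muscle isoform with none. Capitals mark matches to the NRF1 letters or to the ETS letters CCGGAAG on either strand; bases inside the GENCODE gene are left out.
Sdha, chr13:74350281-74350490, minus strand: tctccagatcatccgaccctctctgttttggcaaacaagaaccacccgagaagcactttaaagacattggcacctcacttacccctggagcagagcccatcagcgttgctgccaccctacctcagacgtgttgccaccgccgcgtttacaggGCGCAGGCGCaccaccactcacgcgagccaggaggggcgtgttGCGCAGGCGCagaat
Sdhd, chr9:50603850-50604099, minus strand: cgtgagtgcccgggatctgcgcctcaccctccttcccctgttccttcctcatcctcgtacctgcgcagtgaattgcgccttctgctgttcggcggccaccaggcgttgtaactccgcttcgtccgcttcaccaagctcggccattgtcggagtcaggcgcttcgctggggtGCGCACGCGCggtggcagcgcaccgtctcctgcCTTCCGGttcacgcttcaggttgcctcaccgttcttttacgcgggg
Cox6a1, chr5:115348982-115349208, minus strand: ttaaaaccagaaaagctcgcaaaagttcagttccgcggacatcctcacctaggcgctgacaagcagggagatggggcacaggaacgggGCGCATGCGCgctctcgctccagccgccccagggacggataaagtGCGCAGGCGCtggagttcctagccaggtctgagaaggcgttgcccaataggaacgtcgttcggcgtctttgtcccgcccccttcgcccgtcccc
Atp5h, chr11:115419963-115420169, minus strand: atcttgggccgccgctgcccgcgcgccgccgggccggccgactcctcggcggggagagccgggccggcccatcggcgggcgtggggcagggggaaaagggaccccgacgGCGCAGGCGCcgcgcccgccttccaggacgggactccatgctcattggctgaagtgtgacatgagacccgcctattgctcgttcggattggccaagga
Cox7a1, chr7:30183921-30184143, plus strand: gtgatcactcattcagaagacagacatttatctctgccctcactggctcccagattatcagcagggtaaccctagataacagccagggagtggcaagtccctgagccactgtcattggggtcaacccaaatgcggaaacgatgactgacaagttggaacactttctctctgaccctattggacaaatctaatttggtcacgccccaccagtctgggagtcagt

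In Sdha the NRF1 matches printed begin 98 and 55 bases before the RefSeq start, in Sdhd 79 bases before it, in Cox6a1 162 and 117, and in Atp5h 141 bases before it. Within the printed bases, only Sdhd has an ETS match besides, 46 bases before the start. Outside them, the windows of Cox6a1 and Atp5h each hold 1 ETS match, and that of Sdha has another NRF1 match. ETS letters occurred in 16 of the 74 windows (21.6%; 8.86% of all windows, 11.6% of coding ones). The letters AAGATGGC, bound by YY1, occurred in 10 windows (13.5%; 2.75% and 3.05%), 7 of them of complex I genes. GC boxes (GGGCGG) were in 30 windows (40.5%; 35.7% of all and 46.2% of coding windows) and TATAAA in 8 (10.8%; 13.6% and 12.6%). Matches of different motifs overlapped in 1 window, an ETS with a GC box. Median GC content was 57.5% in these windows and 56.3% in those of coding genes. A match describes the letters only, and no binding was measured.

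By complex, NRF1 letters were in 8 of 34 windows of complex I, 2 of 3 of complex II, 1 of 5 of complex III, 1 of 14 of complex IV and 6 of 18 of the ATP synthase. The factors' own genes were expressed: Nrf1 stood at 74.4 to 91.1 CPM, Gabpa at 120 to 151 and Yy1 at 139 to 185 CPM over the 9 libraries, all 3 highest in cre_negative_819. Ppargc1a, the coactivator known for raising mitochondrial gene expression in muscle and fat, was at 1.45 to 4.51 CPM and lowest in that library.

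Setting mutant against wild type asks whether the conditional Dnmt3a mutation went with another level of respiratory chain transcripts in these cells. Most fold changes were slightly negative, and no gene passed the test. Of the 82 genes, 67 had a negative log2 fold change (54.3% of all 18576 genes did) and 15 a positive one (45.7%), and the median was -0.10 against -0.02. With library totals alone as scaling, 55 were negative and 27 positive, while 57.2% of all genes were positive. edgeR's quasi-likelihood test called 0 of the 82 genes at an adjusted p under 0.05 (0.0% of all genes), with a smallest adjusted p of 0.998 in that test, and DESeq2 called 0 of 82 (0.194% of all genes). At an unadjusted p under 0.05, edgeR found 1 lower, Cox4i2 (1.31% of all genes were), and 0 higher (1.86%).

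Markers of other blood cells differed in the same comparison. Summed neutrophil markers (10 genes, none at 0 in all libraries) stood at 689 to 1155 CPM in wild type and at 1182 to 1554 CPM in the mutant, so that the groups did not overlap. All 10 had positive log2 fold changes, with a median of 1.37. Summed B cell markers (8 genes, none at 0 in all libraries) stood at 35.2 to 49.1 CPM in wild type and at 46.7 to 65.0 CPM in the mutant, with 8 of 8 positive and a median of 0.95. edgeR called 0 genes of either list (0.0% of all genes tested). The part of these markers in the values of the respiratory chain genes was not tested.

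Medians by complex were -0.08 in complex I, -0.13 in complex II, -0.09 in complex III, -0.13 in complex IV and -0.14 in the ATP synthase. The 95% interval of the fold change lay within 2-fold in both directions for 78 of 82 genes and within 1.5-fold for 66. Those that reached 2-fold were Cox4i2, Ndufa4l2, Cox6a2 and Ndufs5, which are among the tested genes with the fewest reads. The sign of the median was not stable: with each library left out in turn it ranged from -0.19 to 0.03. Weighting libraries by quality in limma-voom gave 80 of 82 negative, with 14 lower at an unadjusted p under 0.05 (5.33% of all genes) and 0 after adjustment. The library medians had an SD of 0.27 in wild type (n = 3) and 0.11 in mutant (n = 4), around means of 0.05 and -0.04.

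In 3 genes every mutant library lay below every wild-type library (4.15% of all genes did), and in 0 every one lay above (4.17%). Cox4i2 (ENSMUSG00000009876, chromosome 2, 152754173 to 152765037) stood at 0.596 to 1.49 CPM in wild type and at 0.519, 0.518, 0.459 and 0.456 CPM in mutant_824, mutant_827, mutant_829 and mutant_830. These are 32 to 74 and 24 to 29 reads, and the gap between the lowest wild-type and the highest mutant library was small. The log2 fold change was -0.97 (SE 0.35) with an edgeR adjusted p of 0.998, and with each library left out in turn it ranged from -1.19 to -0.50.

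Atp5s (chromosome 12, 69724950 to 69744660), whose product is a coupling factor and not a subunit of the enzyme, stood at 15.8, 18.9 and 16.4 CPM in wild type and at 14.3, 13.8, 15.2 and 14.6 in mutant libraries. Its log2 fold change was -0.24 (SE 0.12). Ndufb2, an accessory subunit of complex I (chromosome 6, 39592574 to 39603382), stood at 44.4, 52.5 and 44.1 CPM in wild type and at 42.1, 39.4, 38.2 and 38.0 CPM in the mutant, with -0.25 (SE 0.15). Neither passed the edgeR test, with an adjusted p of 0.998 for both. Ndufab1, the acyl carrier protein, which also serves mitochondrial fatty acid synthesis, followed with 34.8 ± 3.93 CPM (SD, n = 3) and 28.4 ± 4.29 (SD, n = 4), and its groups overlapped. Ndufa4l2 had 9 to 16 reads in wild type and 3 to 15 in mutant libraries.

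Cre-negative and wild-type libraries did not separate. Of the 82 genes, 50 had negative values (46.8% of all genes) and 32 positive ones (53.2%), with a median of -0.02 against 0.02 over all genes, and edgeR called 0 (0.0% of all genes; smallest adjusted p in edgeR 0.823). Under library totals alone 59 were negative (45.7% of all genes were positive), and with a covariate for Y-linked transcripts 33 (52.8% positive). The spread inside the Cre-negative pair was far wider than the difference from wild type: without cre_negative_819 the median was -0.25, and without cre_negative_780 it was 0.15. The 95% interval lay within 2-fold for 78 genes and within 1.5-fold for 61. As stated above, erythroid markers were high in cre_negative_819. Summed neutrophil markers stood at 1720 and 987 CPM and summed B cell markers at 63.0 and 37.0 CPM in cre_negative_780 and cre_negative_819. The part of these markers in the values was not tested.

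Cox4i2 was also the gene with the lowest p here, the only 1 of 82 lower at an unadjusted p under 0.05 in edgeR (1.59% of all genes; 0 were higher, 3.64%). It stood at 0.379 and 0.421 CPM in cre_negative_780 and cre_negative_819, or 18 and 23 reads, below each wild-type library, with a log2 fold change of -1.25 (SE 0.44) and an edgeR adjusted p of 0.823. The comparison shares the wild-type libraries with that of the mutant, so that both values rest on the same 3 libraries. With Atp5s (13.8 and 15.4 CPM), it made 2 genes whose Cre-negative libraries both lay below wild type (5.12% of all genes). Cox6b2 was the 1 gene with both above (6.25%), at 10.5 and 16.3 CPM against 9.27, 9.43 and 10.3 CPM in wild type, with a log2 fold change of 0.47 (SE 0.23) and an edgeR adjusted p of 0.999; without cre_negative_819 it was 0.11.

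Cox7a1 and Cox6a2, the muscle forms, shared their highest library. Cox7a1 stood at 1.56 CPM in cre_negative_780 and at 0.482 to 0.968 in the other 8 libraries, and Cox6a2 at 2.29 CPM in cre_negative_780 and at 0.568 to 1.38 in the others. Their differences between groups turned on that library. The log2 fold change of Cox7a1 in Cre-negative against wild type was 0.61 (SE 0.42, edgeR adjusted p = 0.9998), and -0.066 without cre_negative_780. Ndufa6, which stood at 59.9 and 74.3 CPM in Cre-negative and at 52.9, 61.1 and 61.1 CPM in wild-type libraries, overlapped between the groups.

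Mutant and Cre-negative libraries share the conditional allele and differ in Cre. Of the 82 genes, 62 had negative values (55.8% of all genes) and 20 positive ones (44.2%), with a median of -0.09 against -0.03, but under library totals alone they split 41 to 41, with a median of 0.002, and 59.8% of all genes were positive. edgeR called 0 of 82 (0.0% of all genes; smallest adjusted p in edgeR 0.912), and 0 had an unadjusted p under 0.05 in either direction (3.71% of all genes were lower and 1.55% higher). Without cre_negative_819 the median was 0.14 and without cre_negative_780 it was -0.26. In this last fit, where cre_negative_819 stood alone and was assumed to vary like the other groups, edgeR called 1 of the 82 genes, Ndufs1, the largest core subunit of complex I, as lower in the mutant, where 4.26% of all 19301 genes were called lower, and 0 as higher (5.24%). Ndufs1 stood at 134 and 227 CPM in cre_negative_780 and cre_negative_819 and at 160, 154, 146 and 144 CPM in mutant libraries, which lay between them; it was named after its values were seen.

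The 1 gene whose mutant libraries all lay above the Cre-negative ones was Cox4i2 (5.09% of all genes), and in 0 of 82 did all lie below (7.27%). Ndufa6 had the lowest p, with mutant libraries at 57.0, 61.4, 53.4 and 55.0 CPM. Its log2 fold change was -0.24 (SE 0.12, edgeR adjusted p = 0.912); it was -0.049 without cre_negative_819 and -0.34 without cre_negative_780. Cox7a1, Cox6b2 and Cox6a2 followed, with log2 fold changes of -0.68 (SE 0.39), -0.34 (SE 0.22) and -0.68 (SE 0.45) and edgeR adjusted p-values of 0.927, 0.948 and 0.948. Each of these 3 turned positive without 1 Cre-negative library: Cox7a1 (0.0089) and Cox6a2 (0.69) without cre_negative_780, and Cox6b2 (0.043) without cre_negative_819. For 77 of the 82 genes the 95% interval lay within 2-fold.

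**Figure D5:**
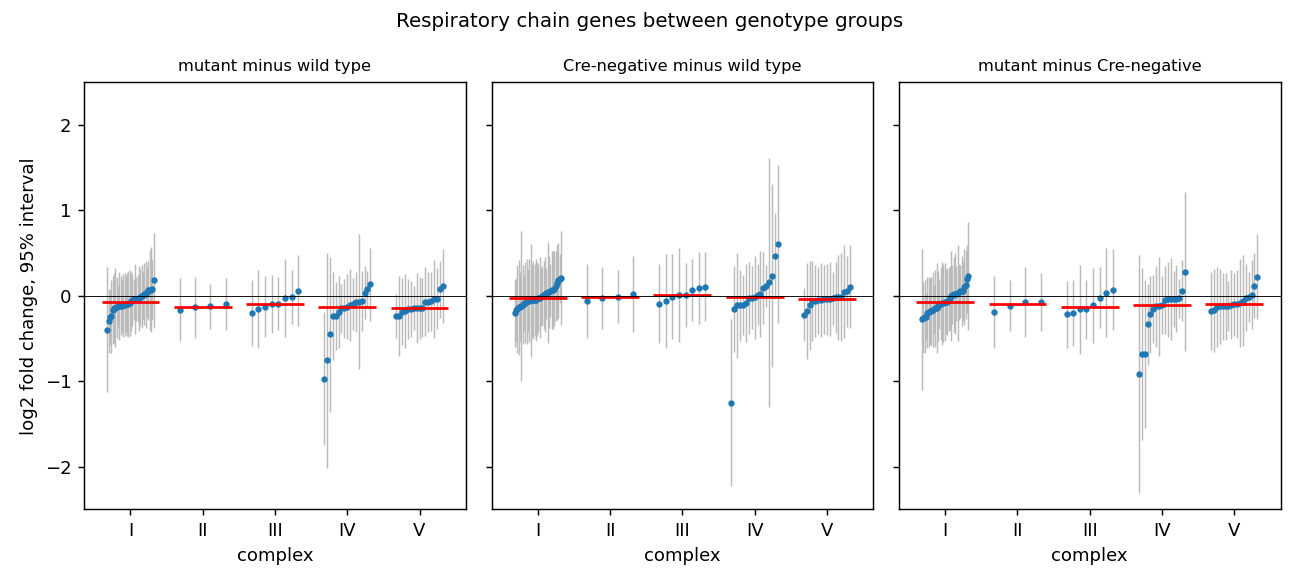
Log2 fold change of each of the 82 genes by complex (points) with its 95% interval from edgeR (grey bars) and the median of the complex (red line), for the 3 pairs of groups. Nearly all points lie within 0.5 of 0, with Cox4i2 lowest against wild type (-0.97 in mutant and -1.25 in Cre-negative), and the 3 panels share libraries.

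In neighbouring parts of the pathway edgeR called 0 genes in any comparison, but it also called 0 of all 18576 genes tested. In mutant against wild type, 54.3% of all genes had negative values, with a median of -0.02. Of 46 tested assembly factor genes, which build the complexes, 34 had negative values, with a median of -0.05. The corresponding figures were 18 of 23 (-0.08) for electron carriers, ubiquinone synthesis and the ATP synthase inhibitor, and 18 of 18 (-0.09) for the citrate cycle and pyruvate dehydrogenase, which supply NADH and succinate. Regulators of mitochondrial biogenesis had 14 of 23 negative (-0.04), mitochondrial ribosomal proteins 57 of 77 (-0.06) and mitochondrially encoded subunits 8 of 11 (-0.11). Cytosolic ribosomal proteins had 28 of 79 negative, with a median of 0.03.

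In Cre-negative against wild type, the median was 0.003 in assembly factors, -0.03 in carriers, 0.02 in the citrate cycle and 0.03 in regulators. It was 0.01 in mitochondrial ribosomal proteins and 0.14 in mitochondrially encoded subunits. Of the latter, 9 of 11 were positive (53.2% of all genes were). In mutant against Cre-negative, 10 of 11 mitochondrially encoded subunits were negative (55.8% of all genes were), with a median of -0.26. mt-Co1, the catalytic subunit of complex IV, stood at 6955 and 9793 CPM in Cre-negative and at 6116, 7453, 5978 and 7037 CPM in mutant libraries, an overlap, with a log2 fold change of -0.33 (SE 0.19) and an edgeR adjusted p of 0.917.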

How the data were processed

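Stranded libraries were prepared from ribosome-depleted total RNA of sorted LSK cells, per the labels' protocols. The authors deposited raw counts per Ensembl gene; STAR, HTSeq 0.5.3p3 and DESeq2 with mm10 (GRCm38) are named, per the submitters' processing notes, whereas annotation and strand setting are not stated there. Results that single out a wild-type library are not reported here. A second, scaled table of the authors was not used. Rows without a gene (5) took 40.5% to 47.3% of reads and stayed out of library sizes and tests; reads not aligned uniquely made up 21.6% to 28.3%. Symbols, exon lengths and transcripts came from GENCODE M21, which matched 37693 of 39179 identifiers.

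Genes kept by filterByExpr (18576) were scaled by TMM and fitted to all 9 libraries with the quasi-likelihood test of edgeR 4.0.16 (R 4.3.3), 1 mean per group, two-sided, Benjamini-Hochberg over all genes, threshold 0.05. This step was checked on simulated data. CPM values use TMM-scaled sizes. Relations across libraries used two-sided exact permutation tests. Shared sequence was counted in 50-base stretches. Groups and library numbers come from the titles; no number occurs in more than 1 group, so they give no pairs.

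Named genes were the 5 with the lowest p in each comparison, the 2 highest and the lowest per kilobase in each complex, isoform sets, and up to 3 of each other list; others are named as examples after their values were seen. The members and lists were chosen with earlier results of these data known. Alternatives were RLE, upper-quartile and library-total scaling, DESeq2 1.42.0, limma 3.58.1 (voom with quality weights), other filters, only the groups compared, a covariate for Y-linked transcripts (summed level above 5 CPM), removal of mitochondrial, histone and small RNA genes, exon-union lengths, and each library left out in turn.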

Additional observations from a re-analysis of the deposited data

Results flagged for a closer look

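Ndufs5, an accessory subunit gene of complex I, stood at 9.98 CPM in mutant_824, apart from the other 3 mutant libraries at 5.56, 4.91 and 4.82 CPM; its gap to the nearest exceeded Dixon's 95% critical value of 0.829 for 4 samples. The same gene stood at 4.51 and 10.8 CPM in the Cre-negative and at 7.60, 9.62 and 7.70 CPM in the wild-type libraries. It was the only 1 of 38 values tested in this way that passed, and chance alone flags about 1 group in 20. Of its 50-base stretches, 31.1% occur in transcripts of other genes.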

How the results depend on the processing

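Under the alternatives other than leaving out a library, all 143 log2 fold changes of named genes kept their sign and their side of the threshold. All 60 summary values met the rule set for them: 0 genes called, and medians moved by less than 0.214, the SD of library medians within groups. That margin is wider than the medians themselves, and 2 changed sign inside it. Cre-negative against wild type went from -0.02 to 0.02 with the covariate for Y-linked transcripts. Mutant against Cre-negative went from -0.09 to 0.002 under library totals alone. Leaving out 1 library at a time moved more. The median log2 fold change of the 82 genes ranged from -0.19 to 0.03 in mutant against wild type, from -0.25 to 0.15 in Cre-negative against wild type, and from -0.26 to 0.14 in mutant against Cre-negative; the extremes of the latter 2 came without cre_negative_819 or cre_negative_780. Genes called in mutant against Cre-negative ranged from 0 to 1, the 1 without cre_negative_780. In 4 cases the log2 fold change of a gene changed sign. Cox7a1 ranged from -0.066 (without cre_negative_780) to 1.04 in Cre-negative against wild type, and from -1.09 to 0.0089 (without cre_negative_780) in mutant against Cre-negative. In the latter, Cox6a2 ranged from -1.34 to 0.69 (without cre_negative_780) and Cox6b2 from -0.57 to 0.043 (without cre_negative_819). The causes were not tested. No paired analysis was possible because the library numbers differ between groups. Depth limits the isoforms with under 100 reads in all, Ndufa4l2, Cox8b, Cox7b2 and Cox8c.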
